A study of Mus musculus with 2 samples.

Results

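Imprinted genes are transcribed mainly from the copy inherited from the father or from the mother, and 47 of them, grouped by the parental copy known to be active in the mouse, were followed in total RNA sequencing of embryonic facial prominence. Members were found by matching the listed symbols to gene identifiers through GENCODE M21, which gave 46 genes of the 43346 annotated genes in the files, 23 known for paternal and 23 for maternal expression. The noncoding gene Peg13 had no match in the gene table and was not analysed here. Both libraries came from facial prominences of B6NCrl embryos at day 11.5, of mixed sex, with 109 embryos pooled for library 1 and 88 for library 2. Each library started from 10 ng of RNA longer than 200 nt. There was 1 group and no treated, mutant or later group, so the values describe levels and the spread between 2 pools, and no test between groups was possible. The allele itself was not measured: the parental class of each gene is background knowledge, and 15 of the 46 genes are known as imprinted in a few tissues or stages rather than broadly.

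In an imprinted domain, methylation laid down in an egg or a sperm marks a control region, and neighbouring genes are then read from opposite parental copies. Many domains hold a long noncoding RNA read from the copy on which the protein-coding neighbours are silent. Paternally expressed genes such as Igf2 are known for promoting growth of the embryo, and maternally expressed genes such as Cdkn1c and Grb10 for restraining it. In the face, loss of Cdkn1c in mice is known to cause cleft palate.

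Library 1 held 28627217 expected counts on genes and library 2 held 29281440, and the members took 280571 and 285244 of them, or 0.980% and 0.974%. Levels are in TPM, which is per transcript length within a library. The labelled tissue was checked against its markers: 7 of 7 genes of facial mesenchyme were at 1 TPM or more and summed to 1107 and 1057 TPM in libraries 1 and 2. Spike-in RNA took 15.4% and 15.8% of the TPM. Markers of placental trophoblast, the tissue in which several members are best known, summed to 0.25 and 0.13 TPM, and the defining markers Prl3d1 and Tpbpa were at 0 in both libraries. Because the tissue was taken whole, fewer cells that transcribe a gene and less RNA per cell cannot be told apart in any level below. Where a mean ± SD is given, n = 2 libraries.

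Most of the imprinted genes were transcribed in the facial prominence. At 1 TPM or more in both libraries, 38 of the 46 genes were counted as detected, against 58.5% of 21474 protein-coding genes and 32% of all genes. Their median was 39.2 TPM in library 1 and 36.7 TPM in library 2, where the median over protein-coding genes was 3.53 and 3.30 TPM. A mean of 100 TPM or more was reached by 14 members, against 6.85% of protein-coding genes. Detected members numbered 19 of 23 among paternally expressed genes and 19 of 23 among maternally expressed ones, and 7 genes of each class stood at 100 TPM or more. The paternal class had medians of 37.6 and 36.5 TPM in libraries 1 and 2 and summed to 3815 and 3740 TPM. For the maternal class the medians were 48.3 and 47.3 TPM and the sums 3128 and 3131 TPM. Genes imprinted in few tissues made most of that maternal sum, Gnas alone 1014 and 1013 TPM of it: over broadly imprinted genes the sums were 3807 and 3732 TPM for the paternal and 1350.5 and 1345 TPM for the maternal class. Which class had the higher median depended on its noncoding RNAs: over protein-coding members alone the medians of the mean level were 39.9 TPM for the paternal and 27.3 TPM for the maternal class. Of genes imprinted broadly 28 of 31 were detected, and of genes imprinted in few tissues 10 of 15.

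**Figure D1:**
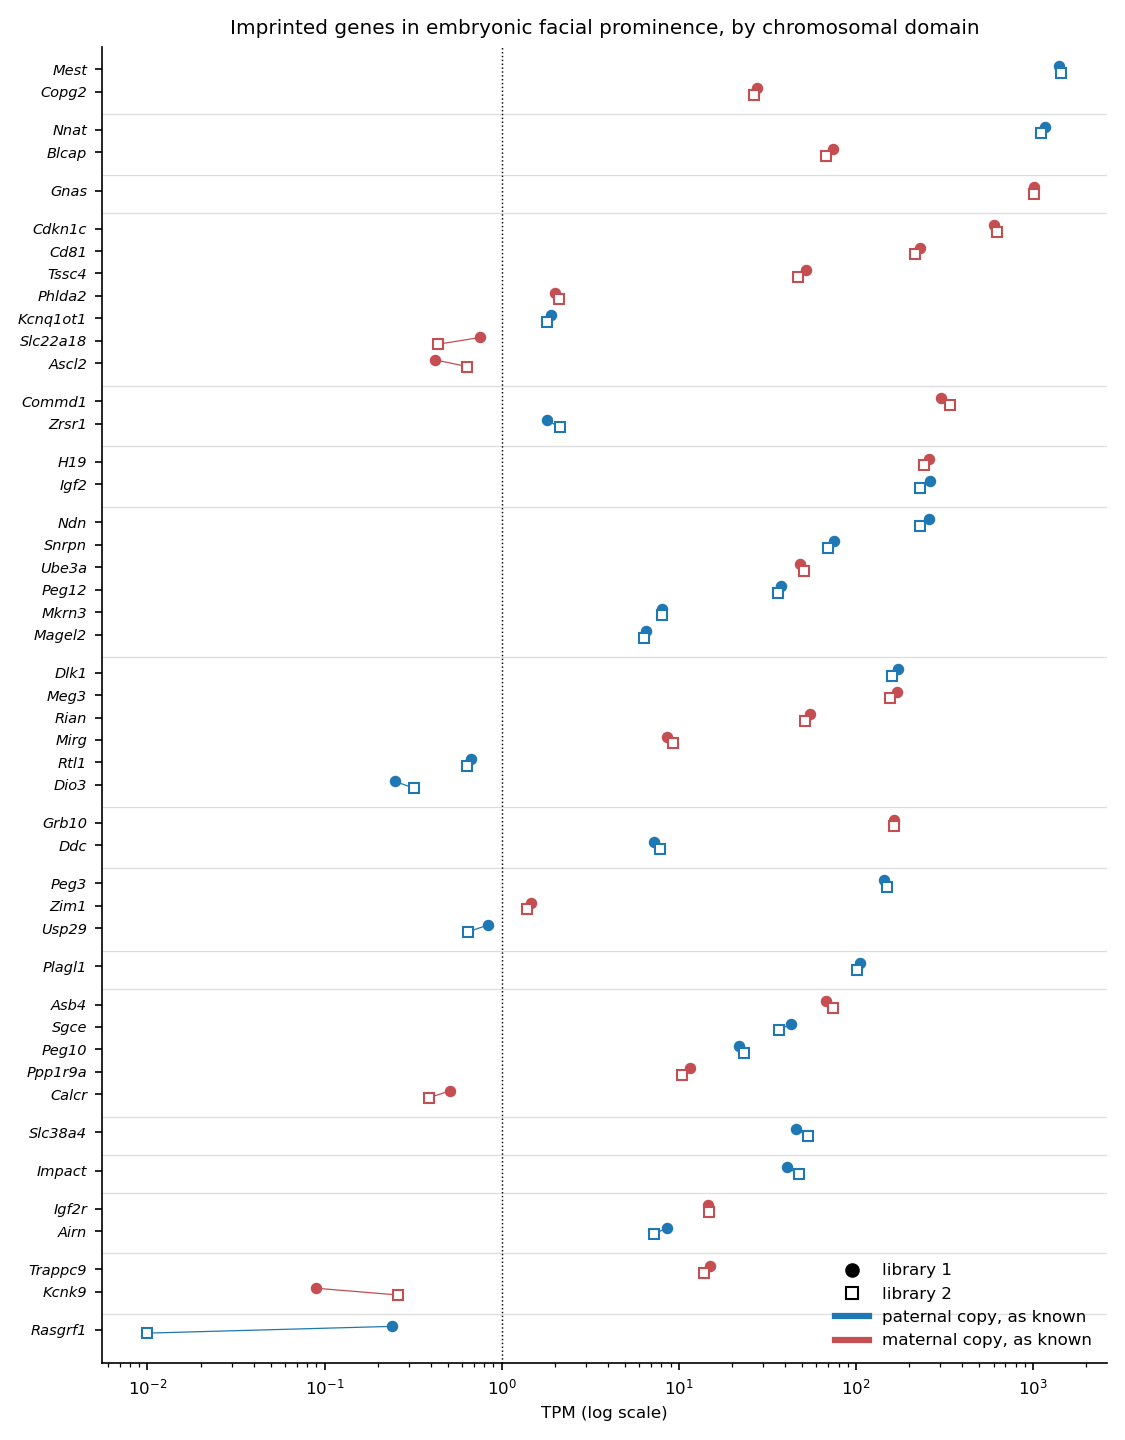
TPM of the 46 imprinted genes in library 1 (filled circles, drawn above) and library 2 (open squares, drawn below) on a log axis, grouped by domain and coloured by the parental copy known to be active, with a dotted line at 1 TPM. Mest (1403 and 1449 TPM), Nnat and Gnas lie farthest to the right in both libraries, and the 8 genes left of the dotted line in both include Rtl1, Dio3 and Rasgrf1.

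The insulin-like growth factor gene Igf2 and its noncoding neighbour H19 stood at nearly the same level. Igf2 (chr7:142650766-142666816, minus strand, mm10), which encodes a fetal growth factor and is read from the paternal copy, had 264 TPM in library 1 and 230.2 TPM in library 2. H19 (chr7:142575529-142578143, minus strand), a noncoding RNA of the maternal copy that starts 88.7 kb away, had 259.5 and 244 TPM. The ratio of H19 to Igf2 was 0.985 in library 1 and 1.06 in library 2, 1.02 ± 0.0539, so which of the pair was higher differed between the pools. Igf2 expected counts were 7676 and 7395, a ratio of 1.04 between the libraries after scaling, smaller than the ratio of its TPM, because the mean length of its transcripts was estimated at 1519 nt in library 1 and 1638 nt in library 2.

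The Igf2 model that differed most in level between the pools, among those over 10 TPM, was Igf2-203, with 67.7 TPM in library 1 and 41.8 TPM in library 2. A noncoding processed model at the 3′ end of the gene, Igf2-208, took 46.5% and 49.4% of Igf2 TPM, and coding models took 51.0% and 47.6%. Igf2-203, the coding model with the start farthest upstream, took 25.7% in library 1 and 18.1% in library 2. Starts nearer to the coding exons took 14.0% and 16.2% (Igf2-202 and a neighbouring model) and 11.0% and 12.9% (Igf2-205). Igf2-203 has 650 nt and Igf2-208 has 958 nt, against 2503 nt for Igf2-202 and 4722 nt for Igf2-205. With TPM per length, the 2 short models held a smaller share of Igf2 reads than of TPM. All these starts are those of the annotation and were not measured. H19 was split almost evenly among H19-203 (34.7% and 35.8%), H19-202 (33.1% and 32.6%) and H19-205 (32.2% and 31.6%). H19-202 and H19-205 contain the hairpin of miR-675 in an exon and together made 65.3% and 64.2% of H19 TPM. The remainder was H19-203, whose annotated start lies downstream of the hairpin, so it cannot show whether the hairpin was kept or skipped. The model that spans the hairpin and skips it had 0 TPM in both libraries.

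Hairpins of microRNAs lie within several of these transcripts, and their mature sequences, from RefSeq on GRCm38.p6, are shown because their precursors overlap members of these domains, miR-127 from the strand opposite to Rtl1. Bases 2 to 8, the seed that pairs with targets, are in capitals.
miR-675-5p (in an exon of H19): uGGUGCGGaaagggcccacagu
miR-675-3p (in an exon of H19): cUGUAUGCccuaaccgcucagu
miR-335-5p (in an intron of Mest): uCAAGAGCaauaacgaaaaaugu
miR-335-3p (in an intron of Mest): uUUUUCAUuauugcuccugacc
miR-127-5p (opposite strand to Rtl1): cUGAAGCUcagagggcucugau
miR-127-3p (opposite strand to Rtl1): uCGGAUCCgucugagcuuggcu
miR-453 (in Mirg): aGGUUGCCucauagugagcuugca
miR-496a-5p (in Mirg): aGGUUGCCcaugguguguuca
In all, 31 hairpins lie within 9 members, 14 of them in Mirg and 7 in Rtl1, of which 6 are on the strand opposite to Rtl1. Among their 59 mature sequences there were 58 seeds, and the shared seed is that of miR-453 and miR-496a-5p. Of the 31 hairpin genes 29 had a row in the files and 0 had a count in either library. These RNAs are shorter than the 200 nt limit of the libraries, so no level of a microRNA was measured here.

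Mest and Nnat were the paternally expressed genes with the highest levels. Mest (chr6:30723547-30748465), a gene of mesoderm and mesenchyme whose protein resembles a hydrolase, had 1403 TPM in library 1 and 1449 TPM in library 2, rank 54 of all genes. The library ratio of Mest was 0.945 with a counting interval of 0.935 to 0.955. One start, at chr6:30738050-30738055, gave 99.3% of its TPM in both libraries, and starts farther upstream gave 0.0307% or less each. Its neighbour Copg2, which encodes a subunit of the vesicle coat and is known for maternal expression in some tissues, had 27.8 and 26.8 TPM. The Mest to Copg2 ratio was 50.5 in library 1 and 54.0 in library 2. The 3′ ends of this pair overlap on opposite strands over 17.8% of the exon length of Copg2, and the posterior SD of Copg2 reads, which measures the uncertainty of their assignment, was at most 1.04%.

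Nnat (chr2:157560078-157562522), a proteolipid gene of the developing nervous system that lies inside an intron of Blcap, had 1165 TPM in library 1 and 1115 TPM in library 2, rank 73 of all genes. Blcap, a small membrane protein gene known for maternal expression in brain, had 73.9 and 67.8 TPM, so Nnat was 15.8-fold above its host in library 1 and 16.4-fold in library 2. Blcap-202 took 86.8% and 85.8% of Blcap TPM. Nnat is known in a longer form and in a shorter form that lacks the second exon, 81 nt or 27 codons. Forms with that exon made 69.6% of the TPM of forms that could be told apart in library 1 and 70.6% in library 2 (70.1 ± 0.731%). The full form Nnat-202 stood at 732 and 707 TPM and the skipped form Nnat-205 at 313 and 286 TPM.

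Exon 3 of Gnas is a similar case of 45 nt or 15 codons, which sets the long and the short form of the stimulatory G protein subunit Gsα apart. Both exons are shown from the GENCODE M21 transcripts (plus strand), with the exon in capitals and 15 nt of each neighbouring exon in lower case.
Nnat exon 2, chr2:157561213-157561293: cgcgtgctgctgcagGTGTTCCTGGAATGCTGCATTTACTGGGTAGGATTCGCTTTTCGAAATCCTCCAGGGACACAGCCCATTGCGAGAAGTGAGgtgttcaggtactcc
Gnas exon 3, chr2:174336747-174336791: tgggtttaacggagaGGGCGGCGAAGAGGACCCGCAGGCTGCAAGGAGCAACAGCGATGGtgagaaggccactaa
Gnas forms with the exon made 82.4% and 79.1% of those that could be told apart (80.7 ± 2.37%). Either exon was thus kept in most of the TPM of both pools.

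Gnas (chr2:174284320-174346744) had 1014 TPM in library 1 and 1013 TPM in library 2, the highest level of the genes listed here as maternally expressed, with a library ratio of 0.976 (counting interval 0.962 to 0.991). Its promoters are known to differ in imprinting: the Nesp start is maternal, the XLαs and exon 1A starts are paternal, and the start of Gsα is read from both copies in most tissues. The Gsα starts at 174330006 to 174330287 gave 95.2% of Gnas TPM in library 1 and 95.6% in library 2. Exon 1A starts at 174327570 to 174328023 gave 2.84% and 2.55%. The Nesp start at 174284320 gave 0.488% and 0.662%, and the XLαs start at 174297859 gave 0.217% and 0.280%. Nespas, the antisense RNA over the Nesp start, stood at 5.01 and 3.57 TPM. With strand use not given in the sources used here, reads of Nesp and Nespas cannot be told apart.

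**Figure D2:**
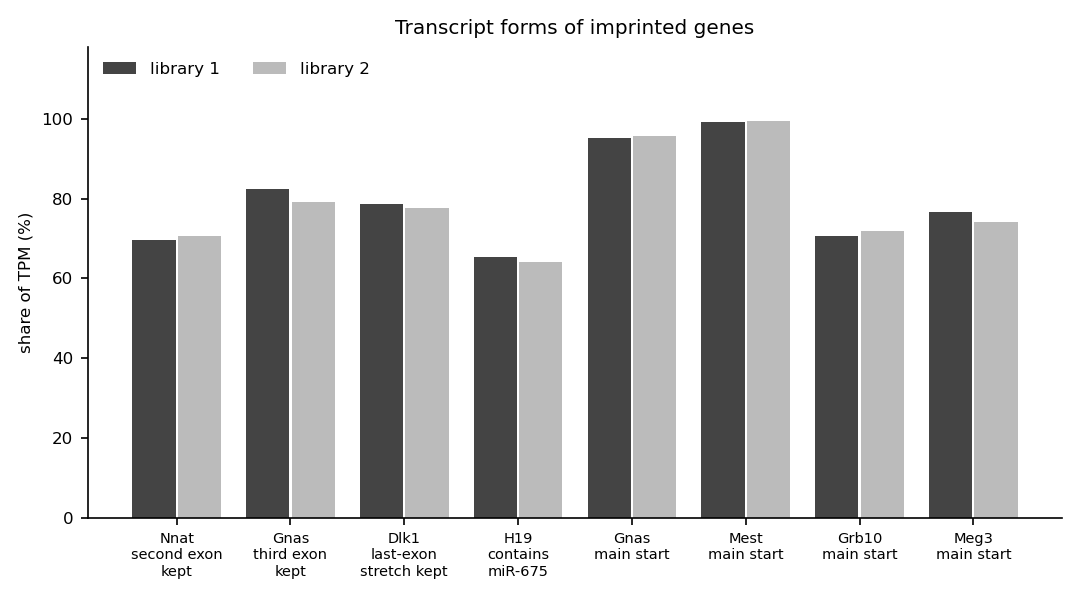
Share of TPM in percent taken by chosen transcript forms of imprinted genes in library 1 (dark bars) and library 2 (light bars); the first 3 pairs are shares among forms that keep or skip the segment, the others are shares of the whole gene. Nnat, Gnas and Dlk1 keep their segments in 69.6% to 82.4% of TPM, and the main starts of Gnas and Mest give 95.2% or more in both libraries. The rest of H19 TPM is from H19-203, whose annotated start lies downstream of the miR-675 hairpin.

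The domain of the noncoding RNA Kcnq1ot1 on chromosome 7 held both very high and very low members. Cdkn1c (chr7:143458339-143461050), the maternally expressed cell cycle inhibitor p57, had 605 TPM in library 1 and 625 TPM in library 2, rank 190 of all genes. Cdkn1c-201 took 83.5% and 83.7% of it. Kcnq1ot1, whose transcription on the paternal copy is known to silence the domain in cis, had 1.91 and 1.81 TPM. That low level per length came from 3308 and 3190 reads over an annotated length of 84395 nt. Cdkn1c was 317-fold and 345-fold above Kcnq1ot1 in libraries 1 and 2. Cd81, a tetraspanin gene, had 230.1 and 215 TPM and Tssc4 had 52.6 and 47.3 TPM, and both are known as imprinted mainly in placenta. Phlda2, a restrainer of placental growth, had 2.00 and 2.11 TPM from 27 and 29 reads, 302-fold and 296-fold below Cdkn1c. Slc22a18, a transporter gene, had 0.76 and 0.44 TPM from 22 and 13 reads, and Ascl2, a transcription factor of trophoblast, had 0.42 and 0.64 TPM from 13 and 20 reads.

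The 7 genes span 534 kb between their starts, with Cd81 and Tssc4 on the side of Ascl2 and Cdkn1c between Kcnq1ot1 and Phlda2. Neighbours of the same known parental class thus differed widely: Cdkn1c starts 12.7 kb from Slc22a18, which was below 1 TPM in both libraries.

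On chromosome 12, the paternally expressed Dlk1 and the maternally expressed noncoding RNA Meg3 stood at almost the same level. Dlk1 (chr12:109452823-109463336), a membrane protein related to Notch ligands that is known for holding back differentiation, had 173 TPM in library 1 and 159.7 TPM in library 2. Meg3 (chr12:109541001-109571726), whose start lies 88.2 kb from that of Dlk1, had 170.3 and 156 TPM. The Meg3 to Dlk1 ratio was 0.985 in library 1 and 0.978 in library 2, 0.982 ± 0.00469. Downstream on the same strand, the noncoding RNA Rian, host of small nucleolar RNAs, had 55.5 and 51.8 TPM, a ratio to Meg3 of 0.326 and 0.332. Mirg, host of a microRNA cluster, had 8.60 and 9.25 TPM, a ratio to Meg3 of 0.0505 and 0.0592. In both libraries the levels of Meg3, Rian and Mirg descended with the distance of their starts from Meg3.

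The other paternally expressed genes of the domain were low. Rtl1, a gene derived from a retrotransposon that is known from placenta and muscle, had 0.67 and 0.64 TPM from 86 and 83 reads. Dio3, which inactivates thyroid hormone, had 0.25 and 0.32 TPM from 9 and 13 reads. In Meg3, transcripts from the first start gave 76.7% and 74.2% of TPM, led by Meg3-205 with 59.3% and 56.8%. Rian was led by Rian-202 with 46.1% and 45.8%. Dlk1 mRNA occurs with and without a stretch of 153 nt in the last exon (chr12:109459893-109460045) that codes for the site where the extracellular part is cut off. Models with the whole stretch made 78.6% and 77.8% of those that could be told apart (78.2 ± 0.614%). The partial model Dlk1-209 joins its exons across 150 nt of the stretch, and with it counted as skipping, a choice made after seeing the data, the share was 72.8% in library 1 and 67.9% in library 2.

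**Figure D3:**
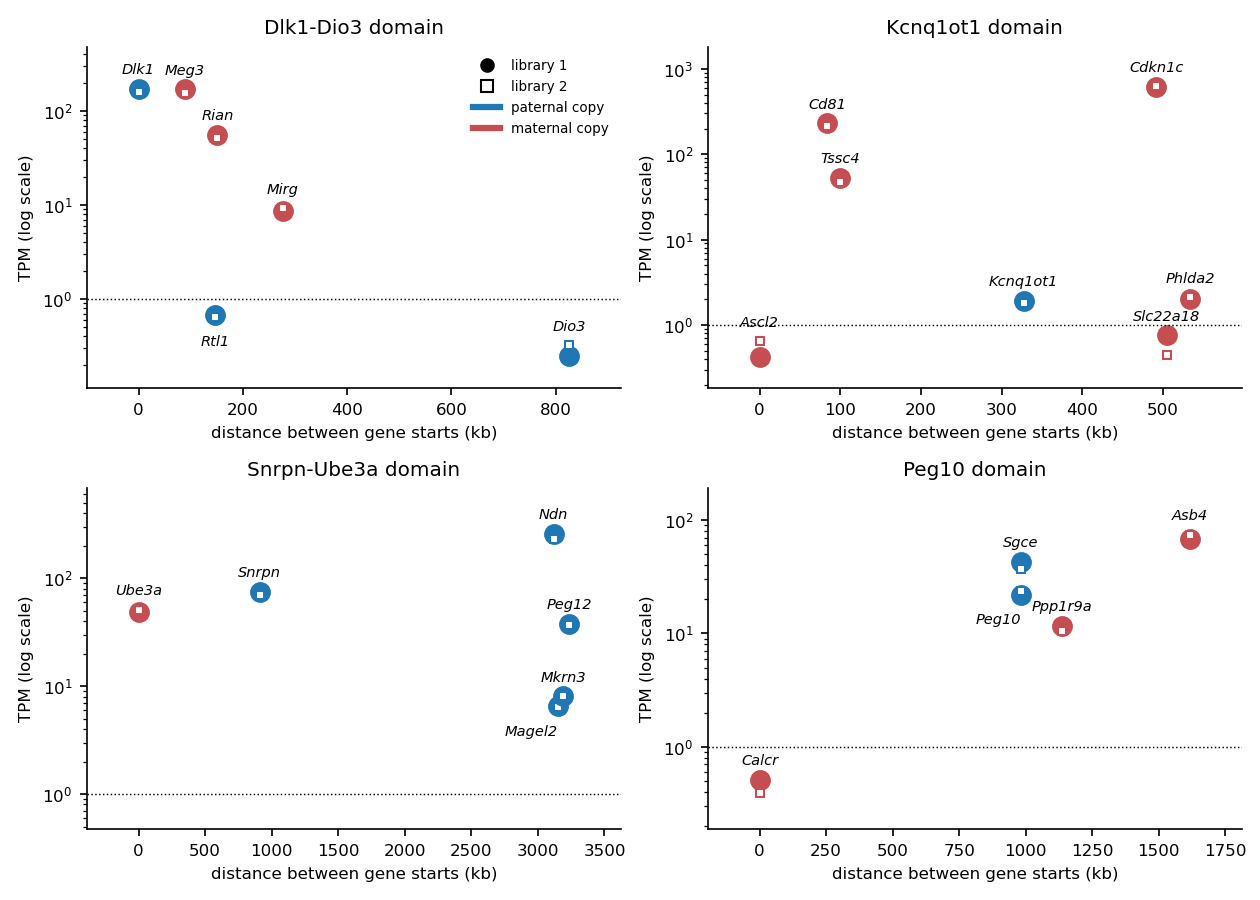
TPM on a log axis against the distance in kb from the first gene start of 4 imprinted domains, for library 1 (filled circles) and library 2 (open squares), coloured by the parental copy known to be active, with a dotted line at 1 TPM. In the Dlk1 to Dio3 domain the maternal RNAs Meg3, Rian and Mirg descend in that order, and in the Kcnq1ot1 domain Cdkn1c lies 317-fold and 345-fold above Kcnq1ot1.

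In the Peg3 domain, the level of Peg3 was far above those of Usp29 and Zim1. Peg3 (chr7:6703892-6730431, minus strand), a zinc finger gene of the paternal copy, had 145 TPM in library 1 and 149.6 TPM in library 2. Usp29 (plus strand) encodes a protein of the deubiquitinase family and is also read from the paternal copy. Its gene start in GENCODE M21 lies 147 nt from that of Peg3, in the opposite direction. The only Usp29 model with a level here, Usp29-201 of 2610 nt, starts farther downstream, at 6961160. It had 0.84 and 0.65 TPM from 43 and 34 reads, and no level was measured for the start beside Peg3. Peg3 was 173-fold above this Usp29 model in library 1 and 230.1-fold in library 2. The maternally expressed zinc finger gene Zim1 had 1.47 and 1.40 TPM, 98.9-fold and 107-fold below Peg3. The RefSeq window around the Peg3 start (GRCm38.p6, minus strand, 250 bases before to 50 after) covers the annotated gene starts of Peg3 and Usp29. It is shown for that reason, with each CpG in capitals.
Peg3 promoter, chr7:6730370-6730669: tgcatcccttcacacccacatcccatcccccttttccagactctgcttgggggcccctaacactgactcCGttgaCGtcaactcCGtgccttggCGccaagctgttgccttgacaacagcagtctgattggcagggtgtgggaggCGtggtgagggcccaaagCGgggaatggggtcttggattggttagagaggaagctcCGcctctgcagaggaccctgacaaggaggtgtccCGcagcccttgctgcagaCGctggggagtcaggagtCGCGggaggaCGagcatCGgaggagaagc
It holds 13 CpG, where the median over 32851 windows of all genes is 7 and 94.6% of windows hold at least 1. The motif searched was CG, which reads the same on both strands. Windows of members were found for 38 genes, 58 windows with a median of 13 CpG. Peg3-201 of 8694 nt took 84.5% and 81.6% of Peg3 TPM, and Peg3-203, annotated as a target of nonsense-mediated decay, took 14.0% and 17.2%.

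A further head-to-head pair, Sgce and Peg10 on chromosome 6, starts 99 nt apart, and both genes are read from the paternal copy. Sgce, a gene of the sarcoglycan family, had 43.0 TPM in library 1 and 36.8 TPM in library 2, and Peg10, a gene derived from a retrotransposon, had 22.0 and 23.5 TPM. Sgce was thus 1.96-fold above Peg10 in library 1 and 1.57-fold in library 2. The leading Sgce model, Sgce-211 with 37.9% and 37.8%, is annotated as a retained intron and not as coding. Peg10-202 took 82.0% and 74.4% of Peg10 TPM. Of the maternally expressed genes of that domain, Asb4, a gene of an ubiquitin ligase adaptor, had 68.3 and 73.9 TPM, and Ppp1r9a, which encodes the actin-binding protein neurabin, had 11.6 and 10.4 TPM. Calcr, the calcitonin receptor gene, had 0.51 and 0.39 TPM from 33 and 26 reads.

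All 6 measured genes of the domain from Ube3a to Peg12 on chromosome 7 were detected. Ndn (chr7:62346569-62350262), which encodes necdin, a growth suppressor known from neurons, was the highest of the 5 paternally expressed ones, with 259 TPM in library 1 and 232 TPM in library 2. Snrpn, a gene of a splicing ribonucleoprotein, had 75.1 and 70.1 TPM, and Peg12 had 37.6 and 36.5 TPM. Mkrn3, which encodes a ring finger protein known for delaying puberty, had 8.01 and 8.02 TPM, and Magel2, a regulator of ubiquitin ligases, had 6.58 and 6.39 TPM. Ube3a, a ubiquitin ligase gene known for maternal expression in neurons and for expression from both copies elsewhere, had 48.3 and 50.8 TPM. Other genes, Snhg14 among them, overlap 27.3% of the exon length of Ube3a on the opposite strand. With strand use not given, the level of Ube3a carries that uncertainty. The ratio of Snrpn to Ube3a was 1.55 in library 1 and 1.38 in library 2. Snrpn shares exons with Snurf, listed at 52.7 and 55.5 TPM from 127 and 136 reads over 216 nt, and the posterior SDs of the 2 genes, 14.3 and 13.6 reads for Snrpn and 14.1 and 13.5 for Snurf, were nearly equal, so the level of Snurf is less certain than that of Snrpn. Snrpn-201 took 99.1% and 98.8% of Snrpn TPM, and the start 60140219 upstream took 0.919% and 1.24%.

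Grb10 and Plagl1 were among the growth regulators with levels over 100 TPM. Grb10 (chr11:11930508-12038683, minus strand), an adaptor that dampens insulin and insulin-like growth factor receptors, had 165 TPM in both libraries (164.9 ± 0.346 TPM). Grb10 is known to be read from the maternal copy in most tissues and from the paternal copy, from downstream starts, in neurons. The start at 12037401 gave 70.5% and 71.8% of its TPM, and the downstream start at 12027971 gave 2.61% and 0.624%. Downstream starts at 12026324 to 12026732 gave 24.7% and 27.1%, nearly all from Grb10-207, a model of 430 nt. Because TPM is per length, this short model held a smaller share of reads than of TPM. Its start is that of the annotation and was not measured. The neighbouring Ddc, which makes dopamine and serotonin from their precursors and is known for paternal expression in the embryonic heart, had 7.27 and 7.81 TPM, so Grb10 was 22.6-fold and 21.1-fold above it. Plagl1, a paternally expressed zinc finger gene known for slowing the cell cycle, had 106 and 102 TPM, with 98.6% and 98.9% from starts at 13090691 to 13091013 on chromosome 10.

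The receptor gene Igf2r, whose protein removes Igf2, and the noncoding RNA Airn, whose transcription on the paternal copy silences Igf2r, were both moderate. Igf2r had 14.7 TPM in library 1 and 14.8 TPM in library 2, and Airn had 8.60 and 7.21 TPM. The Airn level came from 146 and 133 reads on short spliced models with mean lengths of 927 and 983 nt, although the annotated gene spans chr17:12741311-12860136. Igf2r was 1.71-fold and 2.05-fold above Airn. Across the noncoding members, 6 of 6 were detected, against 9.62% of 5600 noncoding genes of the same annotated types, and they ranged from 1.86 ± 0.0707 TPM for Kcnq1ot1 to 252 ± 10.8 TPM for H19.

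Commd1 was the highest member in its domain, and Zrsr1, a gene of splicing that arose by retrotransposition into a Commd1 intron, was among the low detected genes. Commd1, which takes part in copper handling and endosomal sorting and is known for maternal expression in adult brain, had 304 TPM in library 1 and 339.7 TPM in library 2. Zrsr1, of the paternal copy, had 1.81 and 2.13 TPM, and Commd1 was 168-fold and 159-fold above it. Commd1 was split among Commd1-203 (43.8% and 44.2%), Commd1-202 (32.0% and 31.1%) and the retained-intron model Commd1-205 (23.6% and 24.2%). Slc38a4, an amino acid transporter gene, had 46.2 and 53.6 TPM, and Impact, a regulator of translation, had 40.7 and 47.6 TPM, both of the paternal copy. Trappc9, of a vesicle tethering complex, had 15.02 and 13.9 TPM, with Trappc9-202 taking 82.7% and 90.6%. Kcnk9, a potassium channel gene known as imprinted in brain, had 0.09 and 0.26 TPM from 2 and 6 reads, and Rasgrf1, an exchange factor of brain, had 0.24 and 0.01 TPM from 8 and 1 reads.

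**Figure D4:**
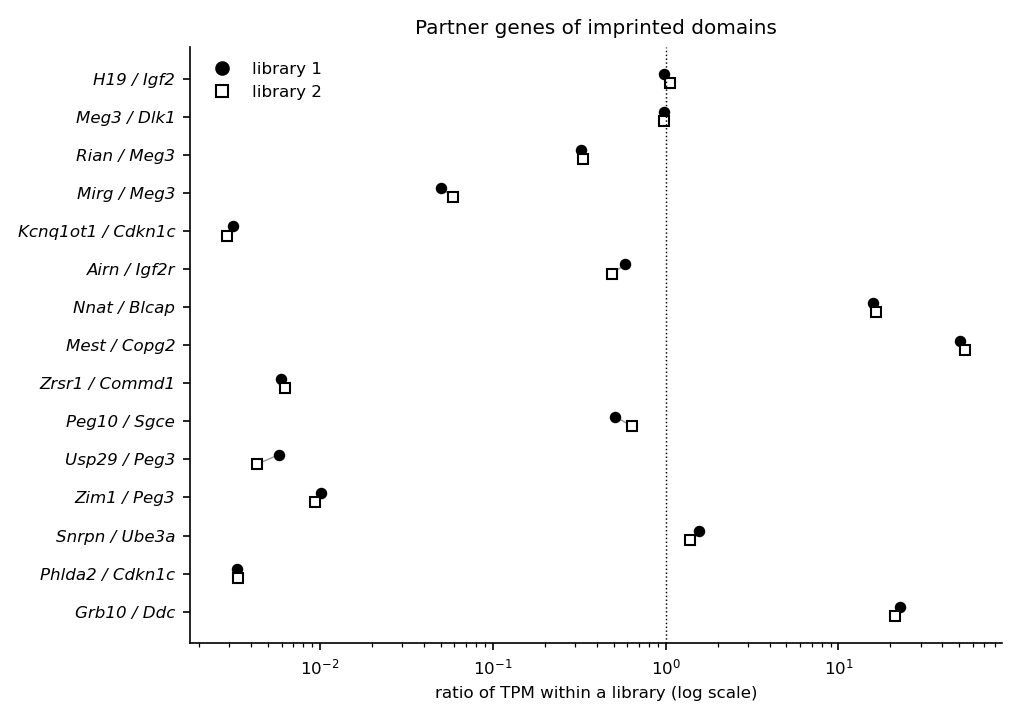
Ratio of the TPM of the first to the second gene of 15 imprinted pairs on a log axis, in library 1 (filled circles) and library 2 (open squares), with a dotted line at equal levels. H19 and Igf2 lie on either side of the line in the 2 libraries, Meg3 and Dlk1 lie just below it in both, and the ratios reach from 0.00289 for Kcnq1ot1 to Cdkn1c to 54.0 for Mest to Copg2.

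Between the pools the members differed little. Ratios of library 1 over library 2 were taken on expected counts scaled by TMM, for genes with 50 or more counts over both libraries together. None (0) of 41 members reached 1.5-fold either way, against 6.6% of 14790 genes, 4.04% higher in library 1 and 2.56% higher in library 2. At least 25% higher in either pool were 2 members, Calcr and Usp29, both in library 1, against 17.9% of genes, 10.8% higher in library 1 and 7.13% higher in library 2. Calcr had a ratio of 1.27 and Usp29 of 1.26, with counting intervals of 0.735 to 2.21 and 0.786 to 2.04 that include 1. The counting interval left out 1 in 19 of 41 members, 10 higher in library 1 and 9 higher in library 2, against 42.6% of genes, 19.7% higher in library 1 and 22.9% higher in library 2, a share near that of the members. Their log2 ratios ranged from -0.27 to 0.34 with a median of 0.01, and the median size was 1.05-fold, against 1.10-fold over all such genes and 1.06-fold over genes with at least the members' median of 5309 counts. The SD of the log2 ratios was 0.138 in the members, 0.350 over all such genes and 0.119 over genes with at least 5309 counts. Shares past a fold were not taken over genes of like counts. No p-value was computed for any of these counts, with 2 samples in 1 group.

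Genes whose intervals lay below 1 by the most, named after their values were seen, were Impact at 0.839 (0.798 to 0.883) and Slc38a4 at 0.840 (0.803 to 0.879). Genes farthest above 1 in that sense included Meg3 at 1.10 (1.06 to 1.14), Dlk1 at 1.10 (1.05 to 1.14) and Ndn at 1.10 (1.06 to 1.13). The spread of the pools over 15986 genes came to a coefficient of variation of 9.79%. The pools also differed in markers of other cell types. Markers of neurons summed to 579 TPM in library 1 and 482 TPM in library 2, with 6 of 6 higher in library 1 by 0.09 to 0.30 on the log2 scale. All markers listed for endothelium (5 of 5, median log2 ratio 0.20), surface epithelium (5 of 5, 0.13) and erythroid cells (4 of 4, 0.13) were also higher in library 1. Eye markers summed to 173 and 35.7 TPM, heart markers to 18.3 and 62.5 TPM, and markers of skeletal muscle to 94.6 and 154 TPM. The part of these markers in the ratios of the members was not tested.

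**Figure D5:**
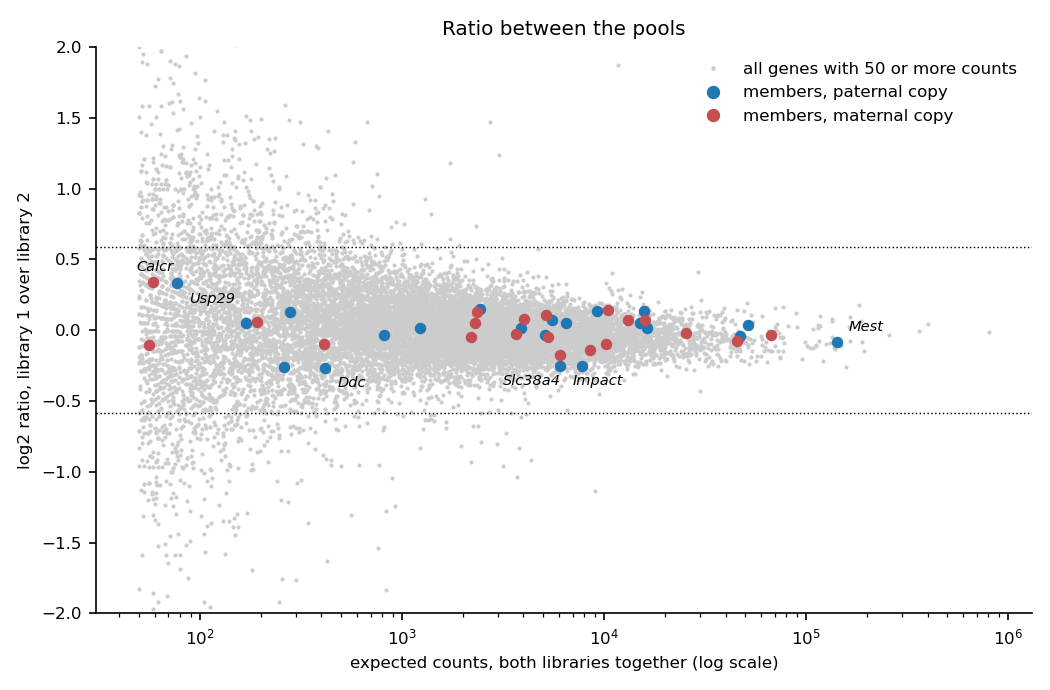
log2 ratio of library 1 over library 2 against the expected counts of both libraries together (log axis), for all genes with 50 or more counts and a count in each library (grey) and for the 41 imprinted members with that many, coloured by parental copy; 41 other genes lie outside the plotted range. Dotted lines mark 1.5-fold either way, and no member lies beyond them.

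The split into transcripts was likewise shared by the pools. Of 29 members averaging 1 TPM or more that have several transcript models, 28 had the same dominant transcript in both libraries, and across all genes 10.1% did not. Ddc was the exception, with Ddc-206, a noncoding model, at 46.0% in library 1 and the coding model Ddc-201 at 40.3% in library 2, from 189 and 227 reads on the whole gene. The dominant transcript took 80% or more in both libraries for 11 of the 29 genes and under 50% in both for 8. The shares of all genes by these rules were not computed, so these counts describe the members only. Mest-211 took 96.5% and 97.1%, and Ube3a, with a single model, was outside this count.

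Proteins that keep or read imprinting marks were transcribed in the same tissue. Of 16 such genes, 14 were at 1 TPM or more in both libraries, against 58.5% of protein-coding genes. Trim28, the corepressor recruited to imprinted control regions, had 408 and 405 TPM, and the zinc finger proteins that bring it there, Zfp57 and Zfp445, had 77.3 and 83.2 TPM and 35.7 and 35.3 TPM. Uhrf1 and Dnmt1, which copy methylation at cell division, had 89.4 TPM in both libraries and 52.6 and 55.0 TPM. Ctcf, which insulates Igf2 on the maternal copy, had 85.4 and 83.5 TPM, and Ezh2 of the Polycomb complex had 101.2 and 112 TPM. Dnmt3l and Dppa3, which act in germ cells and the early embryo, had 0.14 and 0.16 TPM in library 1 and were at 0 in library 2. Of 28 further imprinted genes found of 29 listed, 20 were detected, against 58.5% of protein-coding genes and 32% of all genes, with a median of 4.52 and 4.13 TPM, led by Nap1l4 (136 and 122 TPM), H13 (86.3 and 88.4 TPM), Chrac1 (62.8 and 56.0 TPM) and Dhcr7 (49.3 and 42.2 TPM).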

How the data were processed

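Total RNA of 2 pools of facial prominences was analysed as 2 samples of 1 group; no label says more on how the pools were made, so spreads may be partly technical. Expected counts, per the file headers, hold estimated reads of a gene or transcript as the authors computed them, and TPM is the authors' level per length over all entries, spike-ins included. IsoPct, in the deposited transcript files, is the percent of a gene's TPM in a transcript as the authors computed it. The posterior SD of a count is a deposited signal in reads. Per the notes deposited with the files, the gene models were GENCODE M4 on mm10. The quantifier's version and the use of strand are not given in the sources used here. Levels of members overlapped on the opposite strand are therefore uncertain. Such overlap covered 30.7% of the exon length of Cdkn1c, 27.3% of Ube3a, 23.1% of Mest and 22.0% of Gnas. GENCODE M21, also on mm10, gave symbols, starts and exons, and 268 of 274 member transcripts had a model there. Transcripts of equal length in M21 held 64.0% and 63.1% of member TPM in libraries 1 and 2. Those whose length was within 10% held 94.0% and 94.6%.

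Of 43346 genes, 42462 were named. The members and gene lists were chosen with earlier results of these data known. Every member is named; intervals are given for the highest of each class, for members at least 25% higher in a pool and for 5 named after their values were seen. Library ratios used TMM (edgeR 4.0.16), with exact 95% Clopper-Pearson intervals of the split of counts that cover counting error only. The step that computes library ratios was checked on simulated counts with known folds. Dispersion was fitted with edgeR on counts rounded to whole numbers. Total depth was 30849058 and 31600302 counts. All 46 members had a posterior SD of at most 10% of the count, 1.29% at the most. Figures were drawn with matplotlib 3.10.9. Alternatives were the detection limit, other scalings (DESeq2 1.42.0 size factors, total and spike-in counts), count minimums, posterior means and leaving out a library.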

Additional observations from a re-analysis of the deposited data

How the results depend on the processing

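No paired analysis was possible because the libraries form 1 group. The number of detected members was 40 at 0.5 TPM, 35 at 2 TPM and 34 at 5 TPM. The share of all genes was taken at 1 TPM only. The median level of the members lay between 36.7 and 39.2 TPM without either library, at 49.9 TPM over detected members and at 45.6 TPM after rescaling TPM over genes without spike-ins. The paternal median was 36.1 TPM from posterior means, 42.0 TPM for broadly imprinted genes and 39.9 TPM for protein-coding genes, with 36.5 to 37.6 TPM without either library. The maternal median was 48.2, 53.7 and 27.3 TPM under the same 3 choices and 47.3 to 48.3 TPM without either library. The lower value follows from leaving out the noncoding RNAs, and it puts the maternal below the paternal class. With no minimum count 4 members passed 1.5-fold, each with under 50 counts, and the share of all genes was not taken under that rule. Under the minimum of 50 counts, 2 members were at least 25% higher in a pool. The median log2 library ratio was -0.0030 with a minimum of 200 counts, and 0.05 with total counts and 0.08 with spike-in counts, under which 27 and 30 of 41 members were higher in library 1, against 22 in the main scaling; these scalings moved all genes by as much. The dominant transcript differed in 0 of 25 members at a mean of 10 TPM or more, against 6.26% of all genes by that rule. By posterior shares it differed in 0 of 29 members, against 10.5% of all genes. The cause was not tested. Of 15 partner ratios, H19 to Igf2 changed side, at 0.985 without library 2. Members under 50 counts are limited by depth.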
